A study of Mus musculus with 6 samples.

Results

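The enzymes that build pyrimidine nucleotides and deoxynucleotides were followed as 9 genes, Cad, Dhodh, Umps, Ctps, Tyms, Rrm1, Rrm2, Tk1 and Dut, taken for their named role in the pathway, with earlier results of these data already known. They are 9 of 43412 genes listed in the deposited tables, and all 9 passed the filter of a mean of 1 TPM over the libraries that left 13749 genes for testing. TPM is the share of a gene's transcripts in a library, scaled to 1000000 transcripts and corrected for their length. GC-2spd cells, an immortalized line labelled as mouse testis of C57BL/6J background and known as germ cell-2 spermatids, were sequenced as poly(A) RNA in 6 libraries. Of these, 3 came from normoxic cells kept in 21% O2 and 5% CO2, and 3 came from hypoxia-treated cells kept in a workstation with 1% O2, 5% CO2 and 94% N2, in the same medium with serum and antibiotics. The labels name no genetic change in either group. The labels give no exposure time. An exposure of 48 h was recorded here for the hypoxia-treated libraries. That time is the one described for the hypoxia model as a whole, and it is not stated separately for these libraries. Nothing in the labels says that replicate libraries are separate cultures, so the p-values measure only the spread between the libraries, which may be technical.

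Pyrimidine synthesis starts in the cytosol with the multifunctional enzyme CAD, passes through DHODH on the inner mitochondrial membrane, which hands its electrons to the respiratory chain, and ends with UMP made by UMPS. CTP synthase then makes CTP from UTP. Ribonucleotide reductase, built from the large subunit RRM1 and the small subunit RRM2, turns ribonucleotides into deoxynucleotides through a radical whose formation in the small subunit uses oxygen. Thymidylate synthase makes dTMP from dUMP, DUT supplies that dUMP and keeps dUTP out of DNA, and thymidine kinase 1 recovers thymidine for the same pool. These genes are known for their high mRNA levels in dividing cells.

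In hypoxia-treated GC-2spd cells Cad and Umps of UMP synthesis, Ctps of CTP synthesis and Tyms of thymidylate synthesis were lower, and Rrm2, the small subunit of ribonucleotide reductase, was higher, while Cad lost its call under another scaling of the libraries. Umps and Tyms fell to 49.2% and 48.5% of their mean normoxic TPM, Ctps and Cad fell less, and Rrm2 rose. By limma on log2(TPM + 1) with Benjamini-Hochberg adjustment over all tested genes, 4 of the 9 enzymes passed the threshold of 0.05 as lower and 1 as higher, and the other 4 did not pass. Over all tested genes 36.1% were lower and 17.9% were higher, so changes in either direction were common in this comparison. The median log2 fold change was −0.38 for the 9 enzymes and −0.13 for all tested genes. With the libraries scaled by their median ratio, which brought the median of all genes to 0.0014, the median of the enzymes was −0.24, with 3 enzymes lower and 3 higher against 26.3% and 26.2% of all tested genes. In bulk RNA, fewer cells of a kind and less RNA per cell cannot be told apart.

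**Figure D1:**
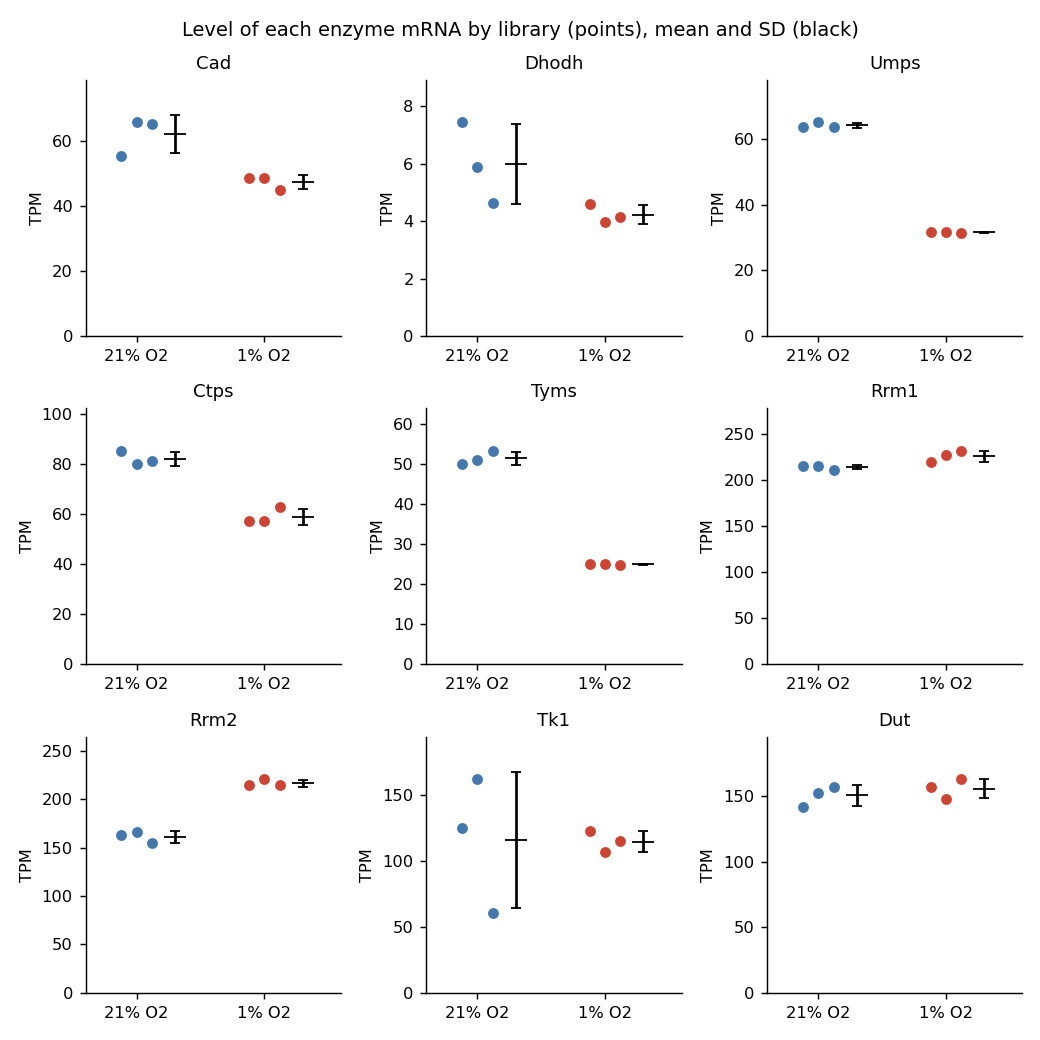
TPM of each of the 9 enzymes (vertical axes, from 0) in the 3 libraries at 21% O2 (blue) and the 3 at 1% O2 (red), with the mean and SD in black. The libraries at 1% O2 lie below those at 21% O2 for Cad, Dhodh, Umps, Ctps and Tyms, lie above them for Rrm1 and Rrm2, and overlap with them for Tk1 and Dut.

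The labels and the state of the cells were checked first. All 12 listed hypoxia-inducible genes rose, with Ero1l from 45.5 ± 1.48 to 603 ± 9.11 TPM (SD, n = 3). Aligned bases, inferred for each library from the commonest ratio of deposited coverage to deposited FPKM, lay between 5.75 and 6.72 gigabases. Mitochondrially encoded genes took 9.25 to 9.29% of the TPM in the normoxic libraries and 5.49 to 5.59% in the hypoxia-treated ones, and TPM outside the annotation ranged from 1.86 to 2.75% and from 2.30 to 5.17%. The part of these shifts in the fold changes below was not tested, apart from the scaling alternatives. None of 19 germ cell markers reached 1 TPM in all 6 libraries, the highest value being 0.604 TPM for Sycp3, and 8 of them were at 0 throughout. Of 6 fibroblast markers, 4 were at 1 TPM or more in all libraries, and their sum of 2271 to 2340 TPM in normoxic and 2700 to 2960 TPM in hypoxia-treated libraries was almost all Col1a1 (1161 to 1720 TPM, normoxic to hypoxia-treated mean) and Col1a2 (1123 to 1138 TPM), whereas Pdgfra fell from 5.02 to 1.54 TPM (adjusted p = 0.000433 by limma) and Pdgfrb from 6.62 to 1.45 TPM (adjusted p = 4.58e-05). By the same measure 3 of 6 Sertoli cell, 1 of 5 Leydig cell, 2 of 5 macrophage and 0 of 5 endothelial cell markers were present.

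Promoters are shown for UMP and thymidylate synthesis genes called lower (Cad, Umps, Tyms) and for the subunits of the reductase (Rrm1, Rrm2). RefSeq windows on GRCm38.p6 matched 8 of the 9 enzymes (no entry for Dhodh). Each sequence runs 5′ to 3′ on the strand of its gene up to the base before the annotated start. Capitals mark matches on either strand to CACGTG (the E-box bound by MYC and its partners), to ACGTG and to the CCAAT box. ACGTG, which CACGTG also contains, is a form of the core of the HIF binding site. GCGTG, another form of that core, was not searched and is not marked. The E2F site was searched in the same way, spelled as TTTGGCGC or TTTCGCGC or TTTCCCGC or TTTGCCGC.
Cad (chr5:31054530-31054779, plus strand): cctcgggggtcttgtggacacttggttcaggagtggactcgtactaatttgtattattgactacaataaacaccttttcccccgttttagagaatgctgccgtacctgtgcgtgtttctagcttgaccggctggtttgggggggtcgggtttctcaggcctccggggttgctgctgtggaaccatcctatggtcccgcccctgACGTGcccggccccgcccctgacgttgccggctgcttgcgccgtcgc
Umps (chr16:33967039-33967288, minus strand): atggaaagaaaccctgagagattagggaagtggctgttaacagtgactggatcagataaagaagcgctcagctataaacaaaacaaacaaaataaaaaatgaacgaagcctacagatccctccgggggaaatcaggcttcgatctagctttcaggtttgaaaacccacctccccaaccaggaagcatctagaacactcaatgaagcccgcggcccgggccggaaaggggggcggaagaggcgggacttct
Tyms (chr5:30073626-30073875, minus strand): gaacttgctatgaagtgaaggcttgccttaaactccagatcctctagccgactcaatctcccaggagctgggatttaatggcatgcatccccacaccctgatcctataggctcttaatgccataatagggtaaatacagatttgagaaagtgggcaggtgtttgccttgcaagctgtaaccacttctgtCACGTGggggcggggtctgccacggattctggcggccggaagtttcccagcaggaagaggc
Rrm1 (chr7:102441445-102441694, plus strand): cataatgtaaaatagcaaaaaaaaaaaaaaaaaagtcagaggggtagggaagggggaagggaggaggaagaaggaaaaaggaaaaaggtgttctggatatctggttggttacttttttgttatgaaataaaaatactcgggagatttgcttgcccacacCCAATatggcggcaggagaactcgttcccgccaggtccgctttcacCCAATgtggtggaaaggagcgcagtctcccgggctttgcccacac
Rrm2 (chr12:24708004-24708240, plus strand): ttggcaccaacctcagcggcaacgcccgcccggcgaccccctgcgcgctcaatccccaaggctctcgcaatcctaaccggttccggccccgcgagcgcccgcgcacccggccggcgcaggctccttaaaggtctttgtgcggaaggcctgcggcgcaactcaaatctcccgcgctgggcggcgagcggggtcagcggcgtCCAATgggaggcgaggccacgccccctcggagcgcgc
Positions count back from the RefSeq start. The Tyms window held CACGTG at −61, a motif found in 7.15% of 32851 promoter windows of 300 bases, and the Cad window held ACGTG at −47, found in 19.6%. CCAAT occurred at −91 and −45 of Rrm1 and at −50 of Rrm2, the genes of the reductase, and in 37.4% of all windows. None of the 4 E2F spellings, present in 2.26% of all windows, lay in the windows of these enzymes. Other spellings of the E2F site were not searched and are not marked, so these windows may hold them. The Umps window held none of the motifs searched. The windows of Ctps, which was also called lower, and of Tk1 and Dut are not shown and held none of them either. These matches describe letters only, and they are not evidence of binding.

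Of the enzymes of UMP synthesis, Umps changed most evenly among libraries. Umps encodes the bifunctional enzyme of the last 2 steps to UMP (ENSMUSG00000022814, chromosome 16 from 33954782 to 33967038, minus strand, mm10). Its level was 63.6, 65.1 and 63.9 TPM in the normoxic libraries and 31.7, 31.6 and 31.4 TPM in the hypoxia-treated ones. Every hypoxia-treated library was thus far below every normoxic one, and the spread within a group was small. The log2 fold change was −1.0004 ± 0.04 (SE), with an adjusted p of 9.97e-06 by limma. An antisense gene, Gm15829, overlaps its start on the other strand, at 1.11 to 2.07 TPM.

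Cad (ENSMUSG00000013629, chromosome 5 from 31054780 to 31078479, plus strand), which encodes the enzyme of the first 3 reactions of the route, was at 55.5, 65.7 and 65.2 TPM in normoxic libraries and at 48.5, 48.6 and 44.9 TPM in hypoxia-treated ones. The groups did not overlap, though normoxia replicate 1 lay nearer to the hypoxia-treated libraries than the other two did. The log2 fold change was −0.38 ± 0.08 (SE, adjusted p = 0.00578 by limma). Scaled by the median ratio it was −0.24 and no longer passed the threshold (adjusted p = 0.0587), so the call of Cad depends on how the libraries are scaled.

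Dhodh (ENSMUSG00000031730, chromosome 8 from 109591343 to 109608673, minus strand) had by far the lowest mRNA level of the 9. Its TPM was 7.44, 5.90 and 4.65 in normoxic libraries and 4.58, 3.96 and 4.14 in hypoxia-treated ones. The groups were separated by a narrow gap between normoxia replicate 3 and hypoxia replicate 1. The log2 fold change of −0.40 had a 95% interval from −0.78 to −0.03 and an adjusted p of 0.0677 by limma, and did not pass the threshold. Leaving out 1 library moved it either way, to −0.55 without normoxia replicate 3 (adjusted p = 0.0201) and to −0.26 without normoxia replicate 1 (adjusted p = 0.174), and with quantile normalization it was −0.19 (adjusted p = 0.339). With the TPM of its assembled locus in place of the annotated gene, it was −0.53 and passed the threshold (adjusted p = 0.0104 by limma).

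The gene of CTP synthase 1 was lower as well. Ctps (ENSMUSG00000028633, chromosome 4 from 120539868 to 120570276, minus strand) was at 85.3, 80.0 and 81.3 TPM in normoxic libraries and at 57.2, 57.1 and 62.8 TPM in hypoxia-treated ones. The lowest normoxic library remained well above the highest hypoxia-treated one, and the log2 fold change was −0.47 ± 0.06 (SE, adjusted p = 0.000515 by limma). Its paralog Ctps2 was at 50.5 ± 5.89 TPM in normoxic and 39.6 ± 7.08 TPM in hypoxia-treated cells (SD, n = 3), with overlapping groups and an adjusted p of 0.0650.

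Thymidylate synthesis showed the lowest ratio of hypoxia-treated to normoxic mean TPM among the 9 genes. Tyms (ENSMUSG00000025747, chromosome 5 from 30058202 to 30073617, minus strand) was at 49.99, 51.0 and 53.2 TPM in normoxic libraries and at 24.9, 25.1 and 24.8 TPM in hypoxia-treated ones. The 3 hypoxia-treated values were nearly identical and all lay below the normoxic ones. The log2 fold change was −1.02 ± 0.05 (SE, adjusted p = 1.50e-05 by limma), close to that of Umps.

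Dut (ENSMUSG00000027203, chromosome 2 from 125247190 to 125258608, plus strand), the dUTPase that supplies the substrate of thymidylate synthase, was at 142, 153 and 157 TPM in normoxic libraries and at 157, 148 and 163 TPM in hypoxia-treated ones. The groups overlapped, and the log2 fold change of 0.05 had a 95% interval from −0.09 to 0.18 (adjusted p = 0.492 by limma). A log2 change as large as that of Tyms lies outside this interval. Scaled by the median ratio, Dut was higher by 0.19 (adjusted p = 0.0265), and in FPKM its difference was −0.0022.

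The subunits of ribonucleotide reductase had the highest mean levels of the 9 mRNAs, and neither was called lower. Rrm2 (ENSMUSG00000020649, chromosome 12 from 24708241 to 24714146, plus strand), the small subunit that is limiting in dividing cells, was at 163, 166 and 155 TPM in normoxic libraries and at 214, 220 and 214 TPM in hypoxia-treated ones. All hypoxia-treated libraries were above all normoxic ones, and the log2 fold change was 0.42 ± 0.04 (SE, adjusted p = 0.000250 by limma). Rrm1 (ENSMUSG00000030978, chromosome 7 from 102441695 to 102469771, plus strand), the large subunit with the catalytic site, was at 216, 215 and 211 TPM in normoxic libraries and at 220, 227 and 232 TPM in hypoxia-treated ones. Its groups did not overlap either, but the difference was small (0.08, 95% interval −0.01 to 0.17, adjusted p = 0.112 by limma). Scaled by the median ratio, Rrm1 was higher by 0.23 (adjusted p = 0.00137). Groups without overlap were found for 5 of the 9 enzymes with hypoxia lower and for 2 with hypoxia higher, against 41.0% and 21.4% of all tested genes.

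**Figure D2:**
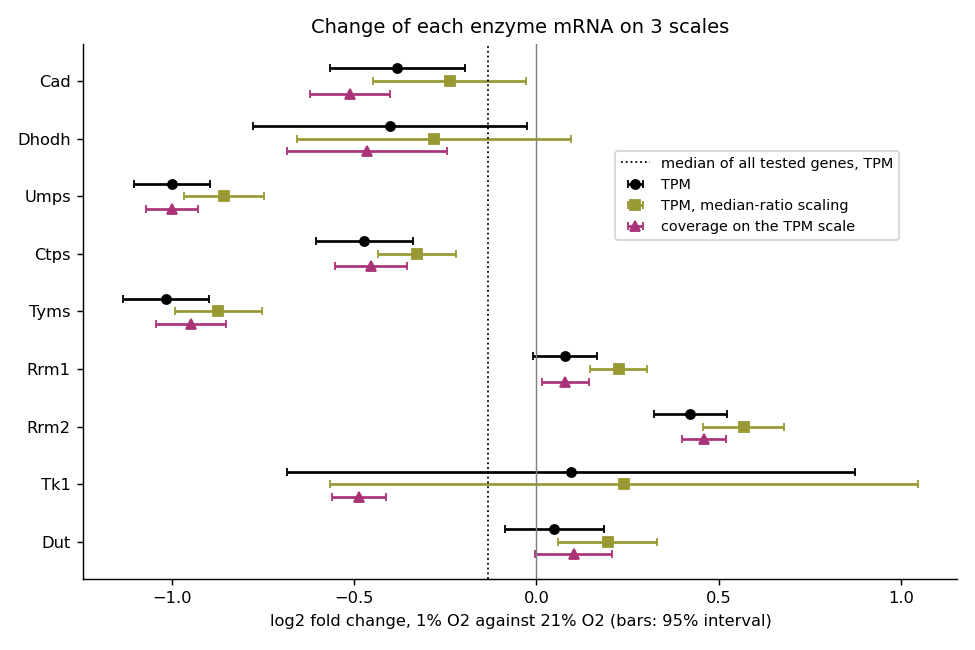
Log2 fold change of hypoxia-treated against normoxic cells (horizontal axis) for each enzyme, with 95% intervals, from TPM (black), TPM scaled by the median ratio (olive) and coverage on the TPM scale (purple). The dotted line is the median of all tested genes, −0.13. Umps and Tyms lie near −1 on TPM and Rrm2 lies above 0 on each scale, whereas Tk1 has a wide interval on TPM and a narrow one below 0 on coverage.

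Thymidine kinase 1 gave a different answer depending on which deposited value was read. Tk1 (ENSMUSG00000025574, chromosome 11 from 117815526 to 117826092, minus strand) was at 125, 162 and 60.7 TPM in normoxic libraries and at 123, 107 and 115 TPM in hypoxia-treated ones. The normoxic values spread so widely (2.67 times from lowest to highest) that they enclosed the hypoxia-treated ones, and the log2 fold change of 0.09 had a 95% interval from −0.68 to 0.87 (adjusted p = 0.827 by limma). The annotation gives Tk1 1 coding transcript and 6 transcripts with a retained intron, and the gene overlaps Afmid and Gm20708 on the other strand. Gm20708 was at 19.5 to 21.3 TPM in normoxic libraries and at 13.4 to 14.2 TPM in hypoxia-treated ones.

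The read depth over Tk1 was even. Expressed on the TPM scale (deposited coverage per gigabase of aligned bases, multiplied by the ratio of TPM to FPKM of the library, a measure chosen after seeing the spread in TPM), coverage was 57.2, 56.6 and 56.8 in normoxic libraries and 41.3, 39.7 and 39.9 in hypoxia-treated ones. All hypoxia-treated libraries were lower, and the log2 fold change was −0.49 (adjusted p = 2.03e-05 by limma). The assembled locus at Tk1 gave 145, 162 and 194 TPM in normoxic and 123, 107 and 115 TPM in hypoxia-treated libraries, again without overlap (−0.53, adjusted p = 0.00593 by limma). In normoxia replicate 1 that locus was assigned to the plus strand. Its lower bound was at 117809668 in normoxia replicate 1 and at 117813154 in normoxia replicate 3, so both reached beyond the annotated gene. In the other libraries the lower bound was that of the gene, 117815526. How reads were divided among transcripts of different length in each library was not tested.

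**Figure D3:**
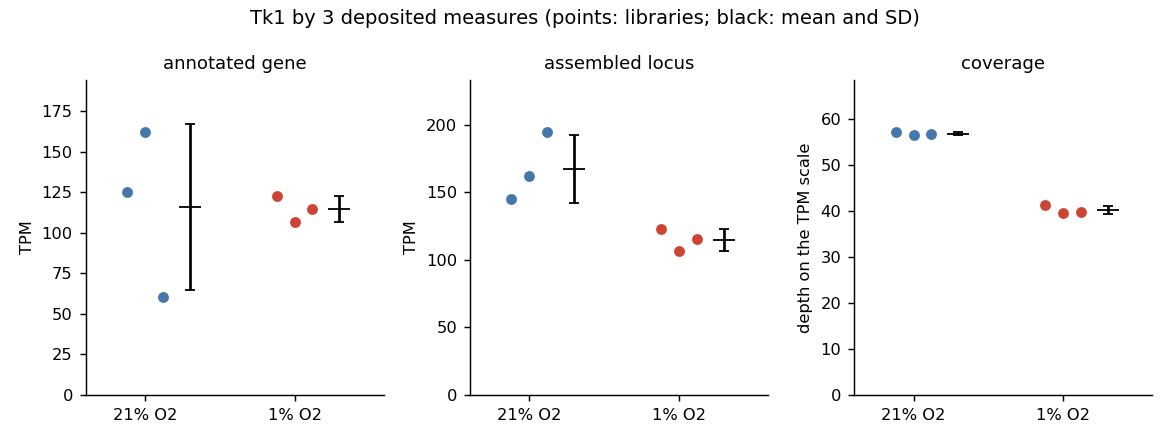
Tk1 in each library at 21% O2 (blue) and 1% O2 (red) as TPM of the annotated gene (left), TPM of the assembled locus (middle) and coverage on the TPM scale (right), with mean and SD in black. The groups overlap on the left, where normoxic values run from 60.7 to 162, and are separate in the middle and on the right.

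On coverage, 6 enzymes were lower (Cad, Dhodh, Umps, Ctps, Tyms and Tk1), 2 were higher (Rrm1 and Rrm2) and Dut was not called, against 41.3% of all tested genes lower and 22.2% higher on that scale. With coverage also scaled by the median ratio, the same 6 were lower and 3 were higher, Dut among them (0.23, adjusted p = 0.00388 by limma), against 31.9% and 31.7% of all tested genes. Dhodh was lower on coverage (−0.46, adjusted p = 0.00384), and Rrm1 was higher (0.08, adjusted p = 0.0384 by limma).

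The order of mRNA levels per length was Rrm1, Rrm2, Dut, Tk1, Ctps, Umps, Cad, Tyms and Dhodh by mean TPM in normoxic cells. On coverage on the TPM scale, Dut and Tk1 lay lower in that order, at 56.8 and 56.9, below Ctps (69.4) and Umps (63.9). Neighbours whose TPM ranges over the normoxic libraries overlapped were Rrm2 and Dut, Dut and Tk1, Tk1 and Ctps, and Umps and Cad. In hypoxia-treated cells Cad lay above Umps, and only Rrm1 and Rrm2 overlapped as neighbours. The TPM of all 9 enzymes summed to 852 to 964 in normoxic libraries and 868 to 892 in hypoxia-treated ones, which overlap, and by the assembled loci to 947 to 997 and 895 to 931, which do not.

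Ratios within a library compared 3 of the enzymes with a paralog and the subunits of the reductase with each other, which removes the scaling between libraries. Rrm2b encodes the small subunit induced by p53 and used outside S phase, and was at 11.3 ± 0.458 TPM in normoxic and 9.93 ± 0.695 TPM in hypoxia-treated cells (SD, n = 3, adjusted p = 0.103 by limma). The ratio of Rrm2 to Rrm2b was 13.7, 14.99 and 13.99 in normoxic libraries and 23.4, 21.2 and 20.9 in hypoxia-treated ones. The ratio of Rrm1 to Rrm2 was 1.33, 1.29 and 1.37 in normoxic libraries and 1.03, 1.03 and 1.08 in hypoxia-treated ones. Neither of these ratios overlapped between groups, with log2 differences of 0.62 and −0.34, and each had p = 0.1 by an exact 2-sided permutation test (adjusted p = 0.2 over 4 ratios), which is the smallest p that 3 against 3 libraries allow.

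The ratio of Ctps to Ctps2 was 1.64 ± 0.144 in normoxic and 1.51 ± 0.172 in hypoxia-treated cells (SD, n = 3) and overlapped (exact permutation p = 0.5, adjusted p = 0.667). Its log2 difference of −0.12 was −0.02 without hypoxia replicate 3 and −0.05 without normoxia replicate 2, and on coverage the ratio was 4.38 ± 0.135 and 3.79 ± 0.182 (SD, n = 3), without overlap. The ratio of Tk1 to Tk2, the mitochondrial thymidine kinase, was 13.8 ± 5.73 and 15.4 ± 3.64 (SD, n = 3), with overlap (exact permutation p = 0.8, adjusted p = 0.8), and its difference turned negative on coverage. Tk2 itself was at 8.30 ± 0.696 TPM in normoxic and 7.66 ± 1.28 TPM in hypoxia-treated cells (SD, n = 3, adjusted p = 0.501 by limma).

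**Figure D4:**
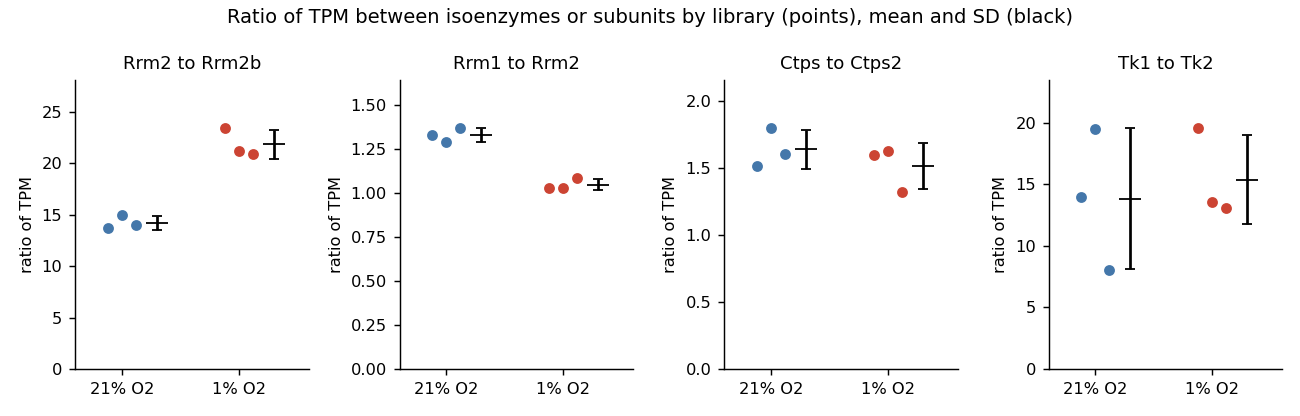
Ratio of TPM (vertical axes, from 0) of Rrm2 to Rrm2b, Rrm1 to Rrm2, Ctps to Ctps2 and Tk1 to Tk2 in each library at 21% O2 (blue) and 1% O2 (red), with mean and SD in black. The first 2 ratios are separate between groups and the last 2 overlap.

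Other genes of the pathway were taken from 3 lists with 47 genes, of which 40 were tested. Among these 40, 15 passed the threshold as lower, 7 passed as higher and 18 did not pass, with a median log2 fold change of −0.14 beside −0.13 for all tested genes. These counts are near the background of 36.1% lower and 17.9% higher. The 4 transporters and breakdown enzymes Slc28a1, Slc28a3, Dpys and Upb1 were near or at 0 TPM, and Slc28a2 and Nt5e were also below the filter.

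Of the 14 genes of other synthesis steps, 7 were lower by limma, none of the others was called, and 0 were higher (also 0 at an unadjusted p under 0.05), against 36.1% lower and 17.9% higher over all tested genes. With median-ratio scaling 5 were lower, against 26.3%. Cmpk2, a mitochondrial nucleotide kinase known as interferon-inducible, fell from 15.3 ± 1.32 to 0.666 ± 0.0472 TPM (SD, n = 3, log2 fold change −3.29, adjusted p = 2.92e-06). Nme1, a nucleoside diphosphate kinase, fell from 58.4 ± 2.98 to 28.4 ± 1.67 TPM (−1.01, adjusted p = 4.06e-05). Its far more abundant paralog Nme2, named after its values were seen, changed less. Nme2 was at 940 ± 19.5 TPM in normoxic and 835 ± 25.7 TPM in hypoxia-treated cells (−0.17, adjusted p = 0.00668 by limma). The paralogs Nme3, Nme4, Nme6 and Nme7 were not called. Dctd, which makes dUMP from dCMP, fell from 11.8 ± 1.11 to 5.69 ± 0.684 TPM (−0.94, adjusted p = 0.000498). Shmt1, which supplies the folate carrier of the thymidylate reaction, fell from 48.9 ± 1.13 to 26.7 ± 1.33 TPM (−0.85, adjusted p = 4.57e-05). The steps beside Tyms on the way to thymidylate, Dctd and Shmt1, were thus lower together with Tyms, whereas Dut was not called.

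Of the salvage and transport genes, 4 of 12 tested were higher and 3 were lower, against 17.9% and 36.1% of all tested genes. Dck, the kinase of deoxycytidine, rose from 62.2 ± 1.40 to 95.2 ± 3.69 TPM (SD, n = 3, 0.61, adjusted p = 9.16e-05), and Cda, which deaminates cytidine, rose from 52.4 ± 3.43 to 75.6 ± 6.16 TPM (0.52, adjusted p = 0.00147). The nucleoside transporter Slc29a2 rose (0.66, adjusted p = 0.000783), as did the uridine-cytidine kinase Uck1 (0.34, adjusted p = 0.00479). Its paralog Uck2 fell (−0.48, adjusted p = 0.000187), as did the nucleoside transporter Slc29a1 (−1.01, adjusted p = 0.00124) and Slc25a33, the pyrimidine nucleotide carrier of mitochondria (−0.99, adjusted p = 0.000130). Both kinds of pair, Slc29a1 with Slc29a2 and Uck1 with Uck2, therefore held 1 member called in each direction.

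Of the genes of breakdown and pool control, 5 of 14 tested were lower and 3 were higher, near the background of 36.1% and 17.9%. Among hydrolases of noncanonical or surplus nucleotides, Itpa was at −0.89 (adjusted p = 5.12e-05), Nudt1 at −0.91 (adjusted p = 0.000783) and Dctpp1 at −0.73 (adjusted p = 0.000102), while Samhd1, chosen after its values were seen, was not called (−0.07, adjusted p = 0.740). The nucleotidase Nt5c fell by 0.68 on the log2 scale (adjusted p = 0.000149). Nudt18 rose by 0.37 (adjusted p = 0.00709) and the nucleotidase Nt5c2 by 0.33 (adjusted p = 0.0164). Nt5c3, a nucleotidase of pyrimidine monophosphates, was higher by 0.63 on TPM (adjusted p = 0.0168) but not on coverage (0.04, adjusted p = 0.617).

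The genes that use deoxynucleotides and those of cell division were set beside the enzymes. Of 44 DNA replication genes, 21 were lower and 8 higher on TPM (median −0.13), but 10 were lower and 15 higher once the libraries were scaled by the median ratio (median 0.0082), so no direction holds for that list. All tested genes gave 36.1% lower and 17.9% higher on TPM, and 26.3% and 26.2% with that scaling. Ccne1, the cyclin of S phase entry, fell from 12.3 ± 0.471 to 4.69 ± 0.210 TPM (SD, n = 3, −1.22, adjusted p = 4.06e-05), and the clamp loader subunit Rfc4 fell by 0.49 on the log2 scale (adjusted p = 0.000126). Gins1 (−0.59, adjusted p = 0.000304) and Rpa1 (−0.33, adjusted p = 0.000324) were lower, and Cdc7 (0.45, adjusted p = 0.000571), Mcm3 (0.26, adjusted p = 0.00117), Cdc45 (0.26, adjusted p = 0.00256) and Pold1 (0.36, adjusted p = 0.00270) were higher. Of 20 genes of mitosis, 11 were higher and 1 was lower (median 0.23), and 16 were higher and 0 lower by limma with the median-ratio scaling (0 also at an unadjusted p under 0.05), against the same shares of all tested genes. Aurkb rose from 137 ± 6.01 to 228 ± 8.60 TPM (0.74, adjusted p = 4.76e-05), Bub1 by 0.69 (adjusted p = 8.17e-05), Top2a by 0.50 (adjusted p = 0.000151) and Ccna2 by 0.41 (adjusted p = 0.000239), and the lower gene was Ccnb1 (−0.18, adjusted p = 0.0115).

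**Figure D5:**
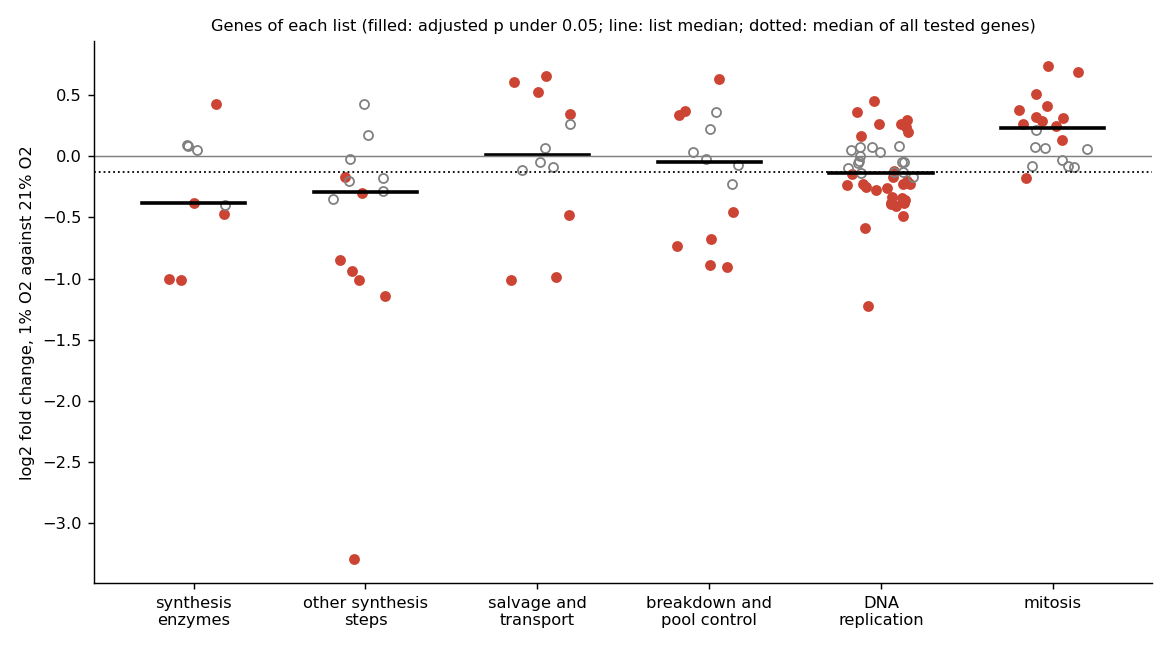
Log2 fold change of hypoxia-treated against normoxic cells (vertical axis) for each tested gene of 6 lists, filled where the adjusted p was under 0.05, with the median of each list as a bar and that of all tested genes (−0.13) as a dotted line. The medians lie at −0.38 for the 9 enzymes, −0.29 for other synthesis steps, 0.01 for salvage and transport, −0.05 for breakdown and pool control, −0.13 for DNA replication and 0.23 for mitosis, and the lowest point, at −3.29, is Cmpk2.

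Of 27 transcription regulators known to act on genes of growth and S phase, 11 rose, 11 fell and 5 did not pass the threshold, against 17.9% higher and 36.1% lower over all tested genes. With median-ratio scaling 13 were higher and 8 lower, against 26.2% and 26.3%. Myc, the activator whose known targets include Cad, fell from 84.9 ± 2.03 to 42.3 ± 1.66 TPM (SD, n = 3, −0.99, adjusted p = 1.61e-05). Mxi1 and Mnt, which compete with MYC for its partner MAX, rose from 47.96 ± 0.241 to 105 ± 7.68 TPM (1.11, adjusted p = 2.21e-05) and from 19.4 ± 0.873 to 41.0 ± 1.26 TPM (1.04, adjusted p = 2.41e-05). Of the other MAX partners of that kind, named after their values were seen, Mxd1 was higher (0.45, adjusted p = 0.0135) and Mxd3 (−0.41, adjusted p = 0.00305) and Mxd4 (−0.18, adjusted p = 0.0446, and 0.544 with median-ratio scaling) were lower. Trp53 fell from 3244 ± 96.7 to 1973 ± 39.2 TPM (−0.72, adjusted p = 1.44e-05 by limma). E2f6 (−0.75, adjusted p = 7.21e-05) and Tfdp1 (−0.40, adjusted p = 0.000330) were also lower. Cdkn1a (1.11, adjusted p = 1.66e-05) and Lin52 (0.81, adjusted p = 0.000699) were higher. The other E2F genes were named after their values were seen and went both ways. E2f1 (0.59, adjusted p = 0.000946) and E2f4 (0.16, adjusted p = 0.0432) were higher. E2f2 (−0.42, adjusted p = 0.00313), E2f3 (−0.74, adjusted p = 0.000645) and E2f5 (−0.41, adjusted p = 0.0181) were lower. E2f7 and E2f8 were not called. The part of these regulators in the levels of the enzymes was not tested.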

How the data were processed

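RNA of GC-2spd cells was measured in 3 normoxic and 3 hypoxia-treated poly(A) libraries. Per the labels, the authors used cutadapt for trimming, HISAT2 for alignment to mm10 and StringTie for abundance (versions and annotation release are not given in the sources used here). The deposited TPM, FPKM and coverage (read depth, a signal not scaled to the library) are per gene. The deposited TPM and FPKM are corrected for length, and the deposited coverage is not corrected for depth. The TPM columns also list assembled loci, which sum to 1000000, so only rows of annotated genes were analysed (symbols from GENCODE M21, repeated symbols summed), with loci used as an alternative for the enzymes. The authors tested counts with edgeR; these tables hold no counts, so no counting interval was given.

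Genes with a mean of at least 1 TPM (13749) were tested as log2(TPM + 1), with fold changes on that scale, by limma 3.58.1 in R 4.3.3 (variance trend, 2-sided, Benjamini-Hochberg, threshold 0.05). The steps were tested on simulated data. Ratios used an exact permutation test. The members and lists were chosen with earlier results of these data known. All 9 enzymes are named. Of each list of other pathway, replication, mitosis or regulator genes, up to 4 called per direction with the smallest adjusted p are named. Rrm2b, Ctps2, Tk2 and Cmpk2 are named in addition. Of the hypoxia-inducible genes only Ero1l is named. Genes named outside this rule include Samhd1, Pdgfra, Pdgfrb and the further Nme, E2F and Mxd genes. Alternatives were another pseudocount, filter, unit, scaling, variance model, gene set, assembled loci, a replicate block and leaving out each library; coverage on the TPM scale was added after seeing the data. Where a library had no locus on the gene's strand, the locus with the largest overlap on any strand was used.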

Additional observations from a re-analysis of the deposited data

How the results depend on the processing

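The counts of enzymes depended most on scaling and on the value read. The number of enzymes higher in hypoxia was 1 on TPM, 3 with median-ratio scaling, 2 with protein-coding genes only, 2 on coverage on the TPM scale and 3 on that coverage with median-ratio scaling, and the number lower was 3 to 6 over the alternatives. For DNA replication genes, 10 were lower and 15 higher with median-ratio scaling, and 12 lower and 17 higher on coverage with it. On that last scale 4364 of all tested genes were higher against 2463 on TPM. Tk1 reversed on the assembled locus (−0.53), on coverage (−0.49), on coverage with median-ratio scaling (−0.36) and without normoxia replicate 3 (−0.31, the other 5 libraries left out in turn giving 0.05 to 0.39), and Dut reversed with FPKM (−0.0022). The log2 difference of the ratio of Tk1 to Tk2 (0.22) was −0.39 on the assembled locus and −0.37 on coverage, and ranged from −0.12 to 0.52 over the libraries left out, the lowest without normoxia replicate 3. That of Rrm2 to Rrm2b (0.62) was −1.07 on the assembled locus, where the Rrm2b locus of hypoxia replicate 3 held 373 TPM against 9.13 to 12.8 TPM in the other libraries. Umps, Ctps, Tyms and Rrm2 kept their direction and their call in every alternative, and Cad lost its call with median-ratio scaling alone. Deviations of same-numbered libraries correlated at 0.026, 0.033 and 0.011, and those of differently numbered libraries at −0.054 to 0.026. With 3 libraries per group, these values cannot settle whether the replicate numbers pair the samples. With the replicate block, 2281 genes were higher and 4674 lower, and 1 enzyme was higher and 4 lower as without it.

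The 3 libraries per group limit the precision, the depth in reads is not given by these tables, and the cause of the changes between alternatives was not tested.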
